A study of Macaca mulatta with 9 samples.

Results

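GGT1, GGTL4, GSTT1 and GPX2 are 4 genes of glutathione metabolism. They were measured in the prostates of grown rhesus monkeys (Macaca mulatta) whose mothers had received vehicle or the dioxin TCDD. They were taken as all probes that carry these symbols in the authors' table, which kept probes past a fold of 1.5 and an analysis of variance p of 0.05. This gave 4 genes and 5 probes out of 1123 genes with a symbol in that table, and all 5 probes were well above background on all 9 arrays. Because that table was made from these same 9 arrays, the differences of the 4 genes between groups are given as a description, with no test. The closest value to the table's limit of 1.5-fold was that of a GGT1 probe at 30 ng/kg, at 1.52-fold in the authors' deposited table. GSTT1 was at 1.46-fold at that dose and entered through 300 ng/kg, at 1.82-fold.

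Pregnant dams were injected under the skin with vehicle, 30 ng/kg or 300 ng/kg TCDD on gestation day 20. They then received 5% of that first amount every 30 days up to day 90 after birth. Prostate RNA from 3 offspring per group, taken at necropsy 7 years after exposure, was hybridised to 1 Agilent 1-colour array per animal. All 3 groups, the vehicle group included, had dams that were injected, and strain, litter and exact age are not given in the sources used here, nor whether the offspring of a group came from different dams. The spread between replicates is the spread between these animals. The prostate markers KLK3 and MSMB were well above background on all 9 arrays.

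Glutathione is the main small thiol of the cell. It is broken down outside the cell by gamma-glutamyltransferases at the surface of secretory epithelia, joined to reactive chemicals by glutathione transferases, and used by glutathione peroxidases to reduce peroxides. TCDD binds the aryl hydrocarbon receptor, a transcription factor whose known targets include enzymes of detoxification.

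The arrays differed in overall brightness, which bears on every value here. The 75th percentile of the signal lay between 514 and 1193 intensity units on the vehicle arrays, 343 and 1356 with 30 ng/kg, and 1258 and 2374 with 300 ng/kg. Levels are therefore given as log2 of the ratio of a probe's signal to that 75th percentile, and each difference is one of these relative levels. The arrays lay on 3 slides. Slide 1 held vehicle replicates 1 and 2, slide 2 held vehicle replicate 3 with 30 ng/kg replicates 1 and 2, and slide 3 held 30 ng/kg replicate 3 with the 3 arrays of 300 ng/kg. Vehicle and 300 ng/kg never shared a slide. Probes were tested where every array of some group read them well above background. Over all 15160 tested probes, limma called 0 (0%) in each of the 3 comparisons at a Benjamini-Hochberg adjusted p under 0.05, and the smallest adjusted p was 0.158 for 300 ng/kg against vehicle, 0.946 for 30 ng/kg against vehicle and 0.104 for 300 against 30 ng/kg. Without adjustment, limma gave 2357, 766 and 3130 probes with p under 0.05 in these comparisons.

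The 2 probes of GGT1 and the probe of GGTL4 stood lowest at 300 ng/kg and highest on most arrays of 30 ng/kg, GSTT1 had the same order of group means, and GPX2 had its lowest levels in vehicle and its highest mean at 300 ng/kg. At 300 ng/kg against vehicle, GGT1, GGTL4 and GSTT1 stood about 1.82-fold to 2.29-fold lower and GPX2 7.61-fold higher. In this comparison the groups of all 5 probes did not overlap, 4 lower and 1 higher, where 22.7% of all tested probes had groups that did not overlap (11.2% lower and 11.5% higher). Since the probes had been chosen on this contrast, nothing is read from that count. These are bulk tissue samples, in which fewer cells of a type and less RNA per cell cannot be told apart.

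**Figure D1:**
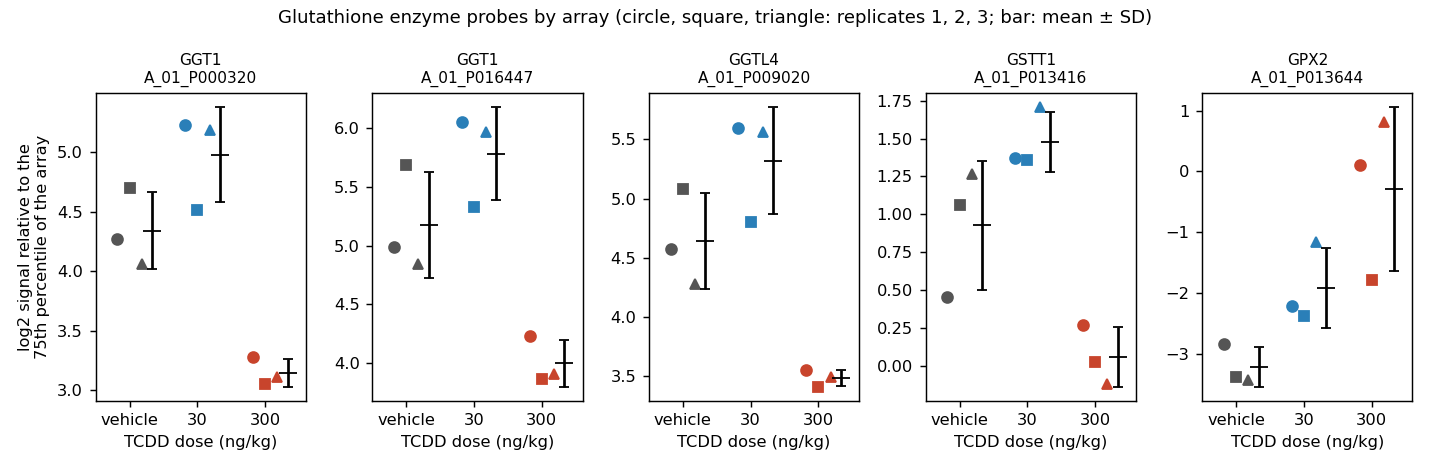
Level of each probe on each of the 9 arrays, as log2 signal over the array's 75th percentile (y axis, a separate range per panel), against the TCDD dose given to the dam (x axis). Circles, squares and triangles are replicates 1, 2 and 3 and bars are the mean ± SD of 3 arrays; the 300 ng/kg arrays lie below all others for GGT1, GGTL4 and GSTT1, and above all vehicle arrays for GPX2.

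GGT1 encodes the gamma-glutamyltransferase that cleaves extracellular glutathione and so starts the recovery of its amino acids. Its probe A_01_P000320 read 4.27, 4.70 and 4.06 on the vehicle arrays, 5.23, 4.52 and 5.19 on the 30 ng/kg arrays, and 3.28, 3.05 and 3.11 on the 300 ng/kg arrays. All 3 arrays of 300 ng/kg lay below every other array, while replicate 2 of 30 ng/kg lay below replicate 2 of vehicle. The group means were 4.34 ± 0.32 in vehicle (SD, n = 3), 4.98 ± 0.40 with 30 ng/kg and 3.15 ± 0.12 with 300 ng/kg. The log2 difference from vehicle was -1.20 ± 0.27 at 300 ng/kg (SE of limma's fit over the 3 groups) and 0.64 ± 0.27 at 30 ng/kg. From low to high, the levels ran 300 ng/kg, vehicle, 30 ng/kg, and the arrays of the latter pair overlapped.

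The other GGT1 probe, A_01_P016447, is described from another transcript record of the same gene. It read 4.99, 5.68 and 4.84 in vehicle, 6.05, 5.33 and 5.96 with 30 ng/kg, and 4.23, 3.87 and 3.91 with 300 ng/kg. Its arrays fell in the same pattern, with all of 300 ng/kg lowest and vehicle and 30 ng/kg overlapping. Its log2 difference from vehicle was -1.17 ± 0.30 at 300 ng/kg and 0.61 ± 0.30 at 30 ng/kg. Both probes gave differences within 1 SE of each other in each comparison.

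GGTL4, described in the authors' table as gamma-glutamyltransferase-like 4, is a relative of GGT1. It read 4.57, 5.08 and 4.28 in vehicle, 5.60, 4.80 and 5.56 with 30 ng/kg, and 3.55, 3.41 and 3.49 with 300 ng/kg. Again the 3 arrays of 300 ng/kg were lowest, close to each other, and replicate 2 of 30 ng/kg lay among the vehicle arrays. The log2 difference from vehicle was -1.16 ± 0.29 at 300 ng/kg, a 2.23-fold lower level, and 0.68 ± 0.29 at 30 ng/kg.

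The GGT1 and GGTL4 probes gave nearly the same profile. Over the 9 arrays, GGTL4 and GGT1 probe A_01_P000320 had a Pearson r of 0.998, and the log2 ratio of the pair had an SD of 0.059 over the arrays. Both GGT1 probes had an r of 0.995, with an SD of the log2 ratio of 0.086. After each group's mean was subtracted, these correlations were 0.991 and 0.974, so the likeness was also present among animals of the same group. The r values are over arrays that share 3 doses and carry no p. These genes belong to a family of closely related transcripts and these probes were described from human records. The probe sequences were not analysed here, and whether the 3 probes read separate transcripts was not tested.

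GSTT1 encodes a theta class glutathione transferase, which joins glutathione to small electrophiles. It read 0.45, 1.06 and 1.27 in vehicle, 1.37, 1.36 and 1.71 with 30 ng/kg, and 0.27, 0.02 and -0.12 with 300 ng/kg. Every array of 300 ng/kg lay below every vehicle array, and every array of 30 ng/kg lay above them, the closest pairs being only 0.45 against 0.27 and 1.27 against 1.36. The log2 difference from vehicle was -0.87 ± 0.26 at 300 ng/kg and 0.55 ± 0.26 at 30 ng/kg. Vehicle replicate 1 weighed on the second of these, which was 0.31 without it. GSTT1 and GGT1 probe A_01_P000320 had an r of 0.901 over all 9 arrays but 0.188 after the group means were subtracted, so their likeness lay mainly in the group means. In a RefSeq gene table of the macaque (assembly T2T-MMU8v2.0), GGT1 and GSTT1 lie on the same chromosome with 22 listed genes between them, 11 of them protein-coding. Among these, SUSD2 is the one that also carries a symbol in the authors' table.

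GPX2 encodes a glutathione peroxidase found mainly in epithelia. It read -2.84, -3.38 and -3.43 in vehicle, -2.22, -2.38 and -1.17 with 30 ng/kg, and 0.10, -1.79 and 0.81 with 300 ng/kg. All vehicle arrays lay below all exposed arrays, but replicate 2 of 300 ng/kg lay below replicate 3 of 30 ng/kg, so the exposed groups overlapped. The means were -3.22 ± 0.33 in vehicle, -1.92 ± 0.66 with 30 ng/kg and -0.29 ± 1.34 with 300 ng/kg (SD, n = 3). The spread at 300 ng/kg was the widest of any group of the 5 probes. The log2 difference from vehicle was 2.93 ± 0.62 at 300 ng/kg and 1.30 ± 0.62 at 30 ng/kg. At 300 ng/kg it was 3.68 without replicate 2 of that dose and 2.38 without replicate 3.

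Of the 5 probes, those of GSTT1 and GPX2 had 30 ng/kg groups that did not overlap with vehicle, both higher, where 9.38% of all tested probes had such groups (4.93% higher). The 3 probes of GGT1 and GGTL4 overlapped in that comparison. Between the doses, the 4 probes of GGT1, GGTL4 and GSTT1 were lower at 300 ng/kg than at 30 ng/kg with no overlap. Of all tested probes, 25.6% did not overlap in that comparison (14.4% lower). The 5 probes had been chosen on these same arrays, so nothing is read from these counts either. The log2 differences were -1.83 ± 0.27 and -1.78 ± 0.30 for the GGT1 probes, -1.83 ± 0.29 for GGTL4 and -1.42 ± 0.26 for GSTT1. GPX2 stood at 1.63 ± 0.62 in this comparison, and at 2.38 without replicate 2 of 300 ng/kg or 1.08 without replicate 3 of that dose. The comparisons of each dose with vehicle share the 3 vehicle arrays, so a vehicle array that is high or low moves both. In the authors' deposited table the 2 GGT1 probes are listed at 1.55-fold and 1.52-fold up at 30 ng/kg and at 2.29-fold and 2.25-fold down at 300 ng/kg. That table lists GGTL4 at 1.60-fold up and 2.22-fold down, and GPX2 at 2.45-fold up and 7.62-fold up.

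The slides could be set aside only in part. On slide 2, the arrays of 30 ng/kg differed from the 1 vehicle array by 0.81 and 0.84 for the GGT1 probes, 0.92 for GGTL4, 0.095 for GSTT1 and 1.13 for GPX2. The difference of GSTT1 was thus close to 0 within that slide. On slide 3, the 3 arrays of 300 ng/kg differed from the 1 array of 30 ng/kg by -2.05 and -1.96 for GGT1, -2.07 for GGTL4, -1.65 for GSTT1 and 0.87 for GPX2. For 300 ng/kg against vehicle there is no slide with both groups, and a fit with slide as a fixed block reaches vehicle only by way of the 30 ng/kg arrays. Vehicle replicates 1 and 2, alone on slide 1, add nothing to that difference. It rests on vehicle replicate 3 and, on slide 3, on 30 ng/kg replicate 3. The fit gave -1.23 ± 0.54 and -1.12 ± 0.61 for GGT1, -1.15 ± 0.57 for GGTL4, -1.55 ± 0.50 for GSTT1 and 2.01 ± 1.30 for GPX2, with wider SEs than the fit without slide.

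The sign and size of a difference depended on whether levels were read relative to the array. The signal of GGT1 probe A_01_P000320 before scaling was 9908, 30942 and 13325 intensity units in vehicle, 12882, 31103 and 13268 with 30 ng/kg, and 12187, 13366 and 20494 with 300 ng/kg. These groups overlapped in all 3 comparisons, and the log2 signal at 300 ng/kg differed from vehicle by -0.10. For the second GGT1 probe, GGTL4 and GSTT1 this unscaled difference was -0.07, -0.06 and 0.23, and their groups overlapped too. The median over all tested probes was 1.10 higher at 300 ng/kg than in vehicle on this unscaled log2 scale, so the low levels of GGT1, GGTL4 and GSTT1 were low relative to the other probes of their arrays. With array brightness as a covariate, the scaled differences from vehicle at 300 ng/kg were -0.98 and -0.99 for GGT1, -0.94 for GGTL4, -0.86 for GSTT1 and 3.14 for GPX2.

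The signal of GPX2 was 71.5, 115 and 73.9 in vehicle, 73.7, 260.1 and 162 with 30 ng/kg, and 1351, 467 and 4170 with 300 ng/kg. Here the 300 ng/kg arrays lay above all others without any scaling, while vehicle and 30 ng/kg overlapped. The unscaled log2 difference of GPX2 at 300 ng/kg was 4.03, above the 1.10 by which the median of all tested probes stood higher. Each probe had 2 spots per array, and none of the spots of the 5 probes was saturated or an outlier. The spots of a probe differed by a median of 0.08 on the log2 scale for GGT1 probe A_01_P000320 and for GGTL4, 0.16 for GSTT1, 0.29 for GPX2 and 0.34 for GGT1 probe A_01_P016447, against 0.14 over all tested probes.

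**Figure D2:**
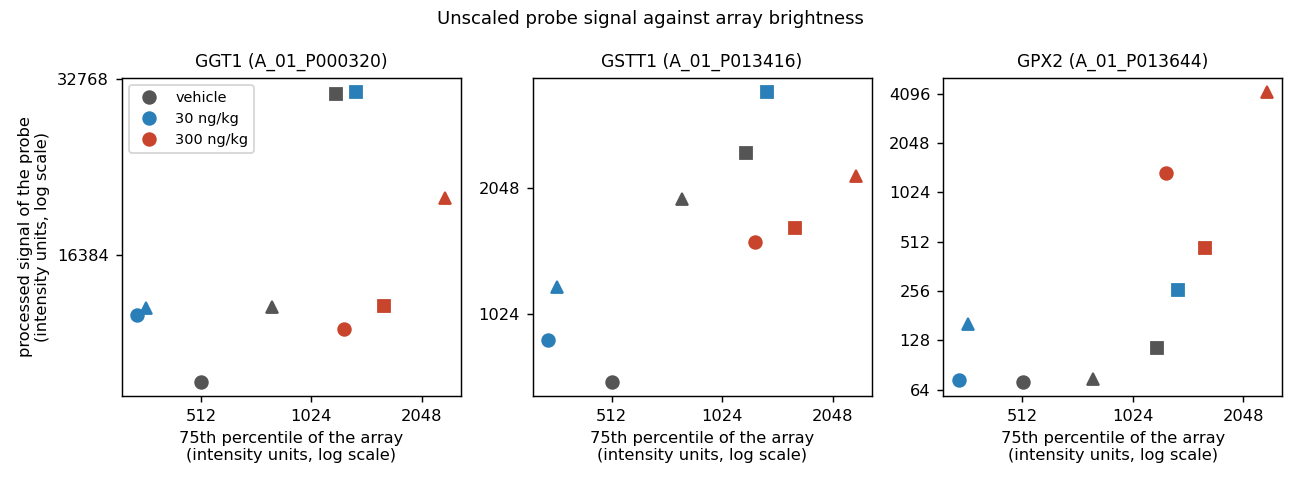
Processed signal of 1 probe each of GGT1, GSTT1 and GPX2 before scaling (y axis, intensity units, log scale) against the 75th percentile of the same array (x axis, intensity units, log scale), 1 point per array with replicates 1, 2 and 3 as circle, square and triangle. The 300 ng/kg arrays are among the brightest, their GGT1 and GSTT1 signals lie within the range of the other groups, and their GPX2 signals of 467 to 4170 lie above all others.

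The other genes of the pathway were taken from 5 lists of glutathione synthesis, glutathione breakdown, glutathione transferases, peroxidases with other antioxidant enzymes, and the NRF2 pathway. Besides the 4 genes above, these lists name 125 further genes, of which 13 carried a symbol in the authors' table and were tested. These 13 were also chosen by that table on these arrays, so their counts are not independent evidence. limma called 0 of the 13 in any comparison. At 300 ng/kg against vehicle 8 stood higher and 3 lower without overlap (11.5% and 11.2% of all tested probes) and 2 overlapped, with a median log2 difference of 0.66 against -0.01 over all tested probes. At 30 ng/kg against vehicle 1 stood higher and 2 lower without overlap (4.45% of all tested probes stood lower), 10 overlapped, and the median was -0.07 against 0.02. Between the doses 9 stood higher and 3 lower at 300 ng/kg without overlap (11.2% and 14.4% of all tested probes), and the median was 0.73 against -0.03.

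GGTLA1 and GGTLA4 are further relatives of GGT1, and GGTLA4, which is on no list under that symbol, was picked after its values were seen. GGTLA4 stood at -0.89 ± 0.40 at 300 ng/kg and 0.82 ± 0.40 at 30 ng/kg, with an r of 0.947 with GGT1 probe A_01_P000320 and 0.915 within groups. GGTLA1 read 0.28, -0.18 and 0.76 in vehicle and -0.90, -0.45 and -1.60 at 300 ng/kg, a log2 difference of -1.27 ± 0.36. At 30 ng/kg GGTLA1 stood at 0.10 ± 0.36, and its r with that GGT1 probe was 0.665 over all arrays and -0.663 within groups, so it shared the low levels at 300 ng/kg but not the differences between animals. LAP3, an aminopeptidase, stood the other way at 300 ng/kg, at 0.66 ± 0.27.

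Among the other genes of the transferase list, GSTM1, of the mu class, stood at -0.62 ± 0.20 at 300 ng/kg. GSTO1, of the omega class, read 1.94, 1.33 and 1.33 in vehicle and 2.62, 2.44 and 2.61 at 300 ng/kg, a log2 difference of 1.02 ± 0.28. ESD, a hydrolase that releases glutathione from S-formylglutathione and was on the same list, stood at 0.75 ± 0.26.

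GPX1, the widely expressed peroxidase, read 3.74, 4.15 and 3.57 in vehicle and 4.72, 4.20 and 4.37 at 300 ng/kg, a log2 difference of 0.61 ± 0.23. Its probe was described from a marmoset record. Of the peroxiredoxins, which also reduce peroxides, PRDX4 stood at 1.31 ± 0.46 and PRDX6 at 0.87 ± 0.21, while PRDX2 stood at -1.26 ± 0.41. At 30 ng/kg GPX1, PRDX2, PRDX4 and PRDX6 overlapped with vehicle, PRDX6 not so under both quantile scalings, where it stood lower at -0.19. UGDH, which makes the donor for glucuronidation, stood at 0.86 ± 0.24 at 300 ng/kg and -0.07 ± 0.24 at 30 ng/kg. TALDO1, an enzyme of the pentose phosphate pathway, stood at 0.89 ± 0.26 and 0.81 ± 0.26, and like GPX2 it had no overlap with vehicle at either dose. ABCC1, an exporter of glutathione conjugates, and SHMT1, which makes glycine, overlapped with vehicle at 300 ng/kg and stood at -0.73 ± 0.20 and -0.62 ± 0.25 at 30 ng/kg.

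**Figure D3:**
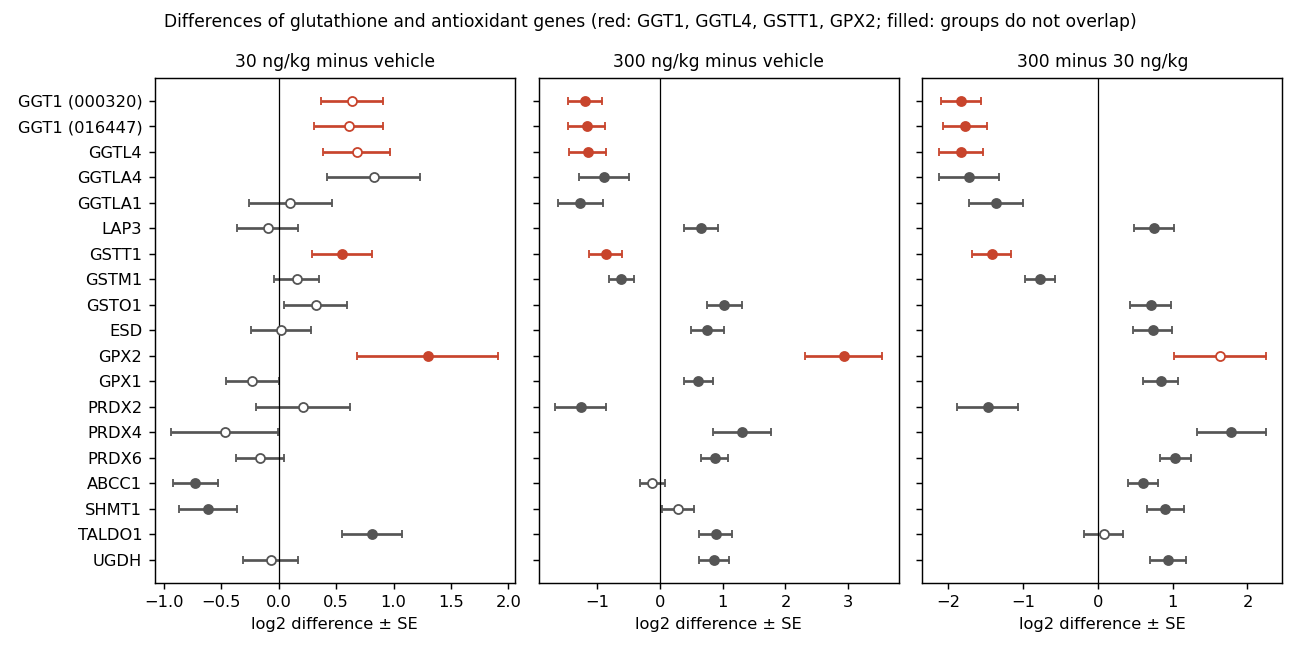
Log2 difference ± SE of limma's fit (x axis) for GGT1, GGTL4, GSTT1 and GPX2 (red) and the other tested genes of the pathway lists with GGTLA4 (grey), in the 3 comparisons. Filled points mark groups of 3 arrays that do not overlap; GPX2 has the highest difference from vehicle of the genes drawn at both doses, and the GGT family lies below 0 at 300 ng/kg against vehicle.

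The genes with the profile most like each of the 4 were found by Pearson r over the 9 arrays among 1009 other tested genes with a symbol, using the brightest probe per gene. All of these genes come from the authors' table, and the r values carry no p. For GGT1 they included GGTL4 (r of 0.994) and NOXA1, an activator of an NADPH oxidase (0.980). For GGTL4 they included GGT1 and NOXA1 (0.977). NOXA1 read -0.72, -0.27 and -1.16 in vehicle, 0.28, -0.71 and 0.16 with 30 ng/kg, and -1.27, -1.80 and -1.79 with 300 ng/kg, with replicate 2 of 30 ng/kg among the vehicle arrays as for GGT1. For GSTT1 they were PILRB, a receptor of immune cells (0.956), NOS2A, the inducible nitric oxide synthase (0.930), and AEGP (0.917). For GPX2 they were COPl, spelled as in the authors' table (0.974), the transcription factor MYB (0.961) and PPP1R14C, an inhibitor of protein phosphatase 1 (0.955). MYB was well above background on only 6 of the 9 arrays and PPP1R14C on 8. On vehicle replicate 1 MYB lay at the lowest value of the scale, -6.10. The 99th percentile of r over all tested probes lay at 0.878 for GGT1, 0.896 for GGTL4, 0.829 for GSTT1 and 0.877 for GPX2. The genes named were the highest of 1009 genes of a table chosen on these arrays. Nothing is read from their lying above that percentile.

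Markers of several cell types of the prostate also differed in level between the groups, and their part in the differences of the 4 genes was not tested. The markers tested are those that the authors' table, made on these arrays, gives a symbol. Of 15 luminal markers 3 were tested, KLK3, MSMB and TGM4, and their summed level relative to the 75th percentile was 626 to 950 in vehicle, 613 to 1956 with 30 ng/kg and 406 to 484 with 300 ng/kg. The largest part of that sum is a KLK3 probe with 10 saturated spots. At 300 ng/kg against vehicle that probe stood at -1.18 ± 0.49 and TGM4 at 8.87 ± 1.44, so the sum mixes opposite directions. The other KLK3 probe, with 0 saturated spots, read 3.92, 5.79 and 3.30 in vehicle, 5.43, 4.61 and 5.89 with 30 ng/kg, and 2.85, 3.02 and 2.74 with 300 ng/kg. KLK3 encodes prostate-specific antigen, and its arrays stood in nearly the order of the GGT1 arrays, with an r of 0.949 over the 9 arrays and 0.875 within groups for GGT1 probe A_01_P016447. MSMB, another secreted protein, had an r of 0.821 with that GGT1 probe and 0.254 within groups. For the KLK3 probe with saturated spots the r with that GGT1 probe was 0.833 (0.341 within groups). TGM4, the third luminal marker tested, went the other way, at -0.801 (-0.246 within groups).

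TGM4, a transglutaminase of the secretions, read -3.89, -4.55 and -2.54 in vehicle, -3.17, -1.08 and -3.61 with 30 ng/kg, and 6.81, 1.42 and 7.41 with 300 ng/kg. As for GPX2, replicate 2 was the lowest array of 300 ng/kg, and the r of TGM4 with GPX2 was 0.869 over the 9 arrays and 0.637 within groups. Of 10 smooth muscle markers 3 were tested, TPM2, LMOD1 and SGCA, all lower at 300 ng/kg than in vehicle without overlap (11.2% of all tested probes stood so). Their summed level was 224 to 341 in vehicle, 244 to 451 with 30 ng/kg and 117 to 199 with 300 ng/kg. With GPX2 the r was -0.933 for LMOD1 (-0.868 within groups), -0.812 for SGCA (-0.122) and -0.577 for TPM2 (-0.308). With GGT1 probe A_01_P016447 it was 0.552 for LMOD1 (-0.346), 0.835 for SGCA (0.844) and 0.808 for TPM2 (0.242).

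Of 8 fibroblast markers 2 were tested, COL1A1 and COL1A2, both higher than vehicle at 300 ng/kg without overlap (11.5% of all tested probes), with a summed level of 6.72 to 8.01 in vehicle, 5.93 to 8.52 with 30 ng/kg and 10.8 to 20.0 with 300 ng/kg. Of 10 basal markers 2 were tested, S100A2 and ITGB4, with summed levels of 4.53 to 6.96, 7.72 to 10.3 and 5.96 to 6.35 in the same order of groups. That sum is nearly ITGB4 alone, and the pair differed in direction between the doses, S100A2 standing at 2.24 ± 0.57 and ITGB4 at -0.52 ± 0.24. S100A2 had an r of 0.715 with GPX2, and 0.707 within groups. It was well above background on 6 of the 9 arrays and lay at the floor of the scale, -6.10, on 30 ng/kg replicates 1 and 3. The difference and r values of S100A2 thus rest in part on floor values. Of 14 markers of hillock, club and urethral epithelium KRT13 alone was tested, and it lay at the floor of the scale, -6.10, on vehicle replicates 1 and 2 and on all 3 arrays of 30 ng/kg, and at -4.13, -3.39 and -1.20 at 300 ng/kg. The endothelial marker PECAM1, 1 of 6 listed, had summed levels of 0.916 to 1.22, 2.19 to 3.04 and 0.679 to 1.28. No marker of seminal vesicle, of immune cells or of nerve was among the tested genes with a symbol.

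**Figure D4:**
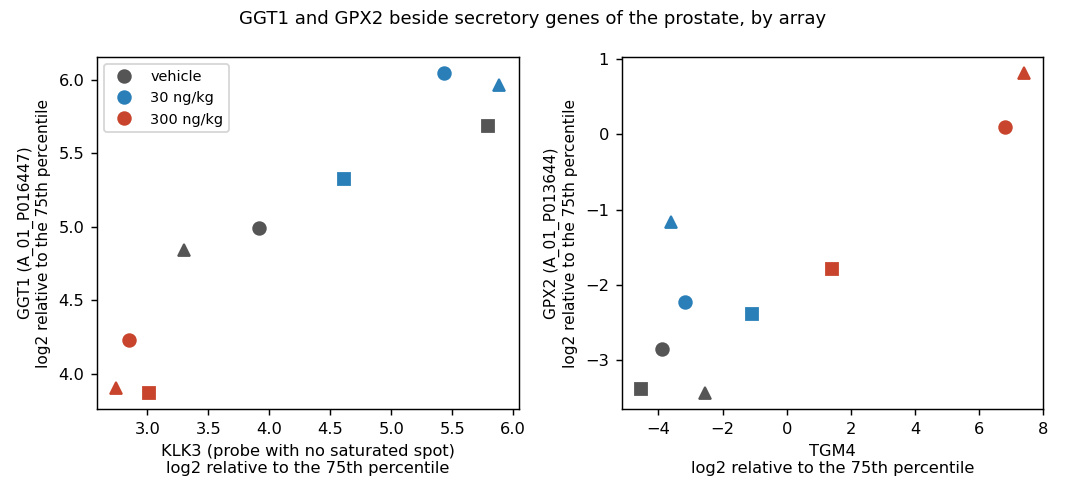
Left, GGT1 probe A_01_P016447 (y axis) against the KLK3 probe with no saturated spot (x axis), and right, GPX2 (y axis) against TGM4 (x axis), all as log2 signal over the array's 75th percentile, 1 point per array with replicates 1, 2 and 3 as circle, square and triangle. Arrays high for KLK3 are high for GGT1 on the left, and on the right replicate 2 of 300 ng/kg lies between the other 2 arrays of that dose and the vehicle arrays.

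**Figure D5:**
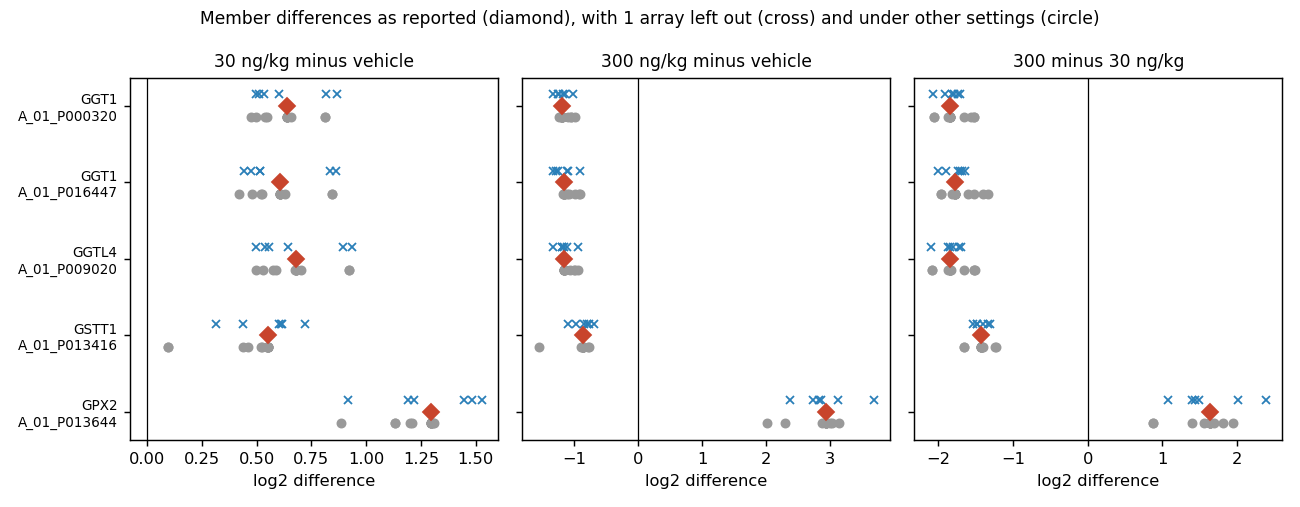
Log2 difference of each probe in the 3 comparisons (x axis) as reported (diamond), with 1 array left out (crosses) and under the other processing settings and fits (circles). Every point lies on the same side of 0 as the reported value, and GPX2 at 300 ng/kg against vehicle spans 2.01 to 3.68.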

How the data were processed

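Per the file headers, the authors read the arrays with Agilent Feature Extraction 9.5.1.1. Its processed signal, as deposited, is a linear intensity with the background removed and no normalization across arrays. In the authors' deposited table a fold is a ratio with its direction in words, and raw group means are log2 values. For GGT1 probe A_01_P000320 the raw means were 13.96 in vehicle, 14.09 with 30 ng/kg and 13.87 with 300 ng/kg. These equal the mean log2 of the unscaled processed signal. How the folds were normalized is not stated in the headers or labels. At 300 ng/kg they lie close to those computed here, 2.290 against 2.292 for that probe and 7.617 against 7.610 for GPX2. The deposited folds come from the same signals and are not separate evidence.

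The processed signal was averaged over the 2 spots of a probe, without outlier spots unless both were flagged, divided by the array's 75th percentile, held to a minimum equal to 5 units on the dimmest array, and log2 transformed. Of 20217 probes, the 15160 with every spot well above background throughout some group entered 1 fit of limma 3.58.1 (R 4.3.3, data.table version 1.17.8, statmod 1.5.0) with group as the only term, 2-sided, with Benjamini-Hochberg adjustment. The fit was tested on simulated data. Plots used matplotlib 3.10.9 and pandas 2.3.3.

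The array files name no genes, so symbols came from the probe descriptions in the authors' table. GGT1, GSTT1 and GPX2 matched the macaque RefSeq table by symbol and GGTL4 did not. The rule for naming genes was all probes of the 4 genes, up to 4 tested genes per pathway list, the 3 genes most like each of the 4, and marker genes a result is set beside. A gene that met this rule is not reported here. The members and lists were chosen with earlier results of these data known. normexp was run with an offset of 50 on the median spot and background signals. Alternatives were other background corrections, scalings, filters and floors, slide, brightness or replicate number in the fit, and each array left out. The deviations of arrays with the same replicate number correlated at -0.256 to 0.543, so the numbers were not taken to pair animals. A further 9 columns of that table, which flag single samples, were left aside.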

Additional observations from a re-analysis of the deposited data

How the results depend on the processing

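No scaled difference of the 5 probes changed sign under the alternatives run. Unscaled signals did turn GSTT1, to 0.23 at 300 ng/kg against vehicle and 0.19 between the doses. Under the settings other than leaving out 1 array, 75 differences were identical by construction (filters, the lower floor, the compared groups alone and the replicate block). A further 107 moved by less than the spread between replicates and 8 by more. The arrays of a slide with both groups gave the same differences as slide as a fixed block, so those differences are counted under both settings. All 90 with 1 array left out moved by less than that spread. The 8 were GSTT1 at 300 ng/kg against vehicle, -1.55 with slide as a fixed block, GPX2 in the same comparison, 2.01 with slide as a fixed block, and GSTT1 at 30 ng/kg against vehicle, 0.095 both with slide as a fixed block and on the arrays of slide 2 alone. The rest concern 300 against 30 ng/kg: GGT1 probe A_01_P000320 stood at -1.52 with normexp and quantile normalization and -1.52 with array brightness as a covariate, and GGT1 probe A_01_P016447 at -1.40 with normexp and at -1.33 with quantile normalization alone. The cause was not tested. With normexp and quantile normalization GSTT1 overlapped with vehicle at 30 ng/kg. PRDX2 there changed side under both quantile scalings, as did ESD under median scaling. Under both quantile scalings PRDX6 stood lower without overlap at 30 ng/kg and SHMT1 higher without overlap at 300 ng/kg, and under median scaling GGTLA4 overlapped with vehicle at 300 ng/kg.

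With each array left out in turn, limma called between 0 and 271 probes at 300 ng/kg against vehicle (271 without 300 ng/kg replicate 2), between 0 and 1 at 30 ng/kg against vehicle and between 0 and 774 between the doses (774 without 30 ng/kg replicate 2), where all 9 arrays gave 0. Slide as a fixed block gave 6 calls at 30 ng/kg against vehicle and 2 between the doses, quantile normalization gave 1 and median scaling 3 between the doses. The replicate block gave 1 call between the doses and 0 in the other comparisons. In this balanced design it cannot move a group difference. Median scaling moved the median of all tested probes between the doses to 0.15, and with it 1736 probes stood higher and 1380 lower at an unadjusted p under 0.05, against 1231 and 1899 with the 75th percentile. For 300 ng/kg against vehicle no fit within a slide could be made. The number of arrays limits the precision.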
